A study of Mus musculus with 8 samples.

Results

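Cyclic GMP is a second messenger made by guanylyl cyclases, and 9 genes of its signalling chain were read here in the developing ventral tegmental area (VTA) of CTR and SS mice. They were chosen by name, after the study had reported Gucy2c as lower in SS from these same libraries. Tests of Gucy2c here are therefore not independent evidence. The 9 are the receptor cyclases Gucy2c, Npr1 and Npr2, the nitric oxide-sensitive cyclase subunits Gucy1a1, Gucy1a2 and Gucy1b1, the cGMP-dependent kinases Prkg1 and Prkg2, and the neuronal nitric oxide synthase Nos1. The count table lists 54735 genes, and all 9 passed the filter on low counts that left 16538 genes for the test. CTR (n = 4) were DBA2/J pups left unhandled with their mothers, and SS (n = 4) were DBA2/J pups placed with a strange adult CD1 male for 30 min per day between postnatal days (PD) 14 and 21. The labels give PD 21 as the age and male as the sex of all 8 pups, whereas the study's text places sampling on the day after the stress period. No transgene or drug is named for any of the pups, and each library came from the bilateral VTA punches of 1 mouse. Punches contain every cell type of the tissue, so fewer cells of a type and less RNA per cell cannot be told apart in these values.

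Cyclases of this family are reached by separate inputs. Receptor cyclases span the membrane and are switched on by peptides from outside the cell: guanylin and uroguanylin act on Gucy2c, the A- and B-type natriuretic peptides on Npr1, and the C-type on Npr2. The soluble cyclase is a pair of an alpha and a beta subunit that binds nitric oxide made by Nos1, and the cGMP of either source acts on Prkg1, Prkg2, cyclic nucleotide-gated channels and phosphodiesterases. Gucy2c is best known as the intestinal receptor for bacterial heat-stable toxin, and in the brain it is known from midbrain dopamine neurons.

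The libraries held between 20036086 and 47319997 counts. CTR-1 and CTR-2 were the least rich, with 17446 and 17738 genes counted at least once, compared with 19328 to 23172 in the other 6. Against their labels, CTR-5 and SS-5 held 14997 and 6551 counts of Xist, which is made from the inactive X chromosome, and 3 and 0 counts of 4 Y-linked genes, so results are also given without them. The dopamine neuron markers Slc6a3 and Th were present in every library but low in SS. Slc6a3 had 448 ± 186 counts per 1000000 normalised counts (CPM) in CTR and 6.19 ± 4.13 in SS (SD, n = 4 each), and Th had 281 ± 147 and 17.8 ± 5.20 CPM. Per-library values are listed for CTR in the order 1, 2, 3, 5 and for SS in the order 2, 3, 4, 5 unless a library is named.

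Of the 9 genes, Gucy2c had lower levels in SS, and the other 8 did not separate the groups. No member passed the threshold of 0.05 in edgeR's quasi-likelihood test after Benjamini-Hochberg adjustment over all genes, although Gucy2c, 15th in order of p, came to an adjusted p of 0.051. The same test called 14 of all genes tested, or 0.0847%, and all 14 were lower in SS. At an unadjusted p under 0.05 the count was 1 of the 9, compared with 6.55% of all genes. Values of SS and CTR stood apart without overlap in 1 of the 9, against 4.67% of all genes. Relative to CTR, 6 members were higher and 3 lower in SS, and their median log2 fold change was 0.13, compared with a median of 0.00 over all genes (8365 higher, 8173 lower). DESeq2 with default options gave Gucy2c an adjusted p of 7.3e-08, and it was the only member among the 81 genes (0.419% of those tested) called by that tool. The study used the same tool on these libraries and reported Gucy2c as lower in SS, so this call repeats its result. Without CTR-5 and SS-5, 0 of the 9 were called and the split of 6 higher and 3 lower was the same. Without CTR-1 it became 3 higher and 6 lower.

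**Figure D1:**
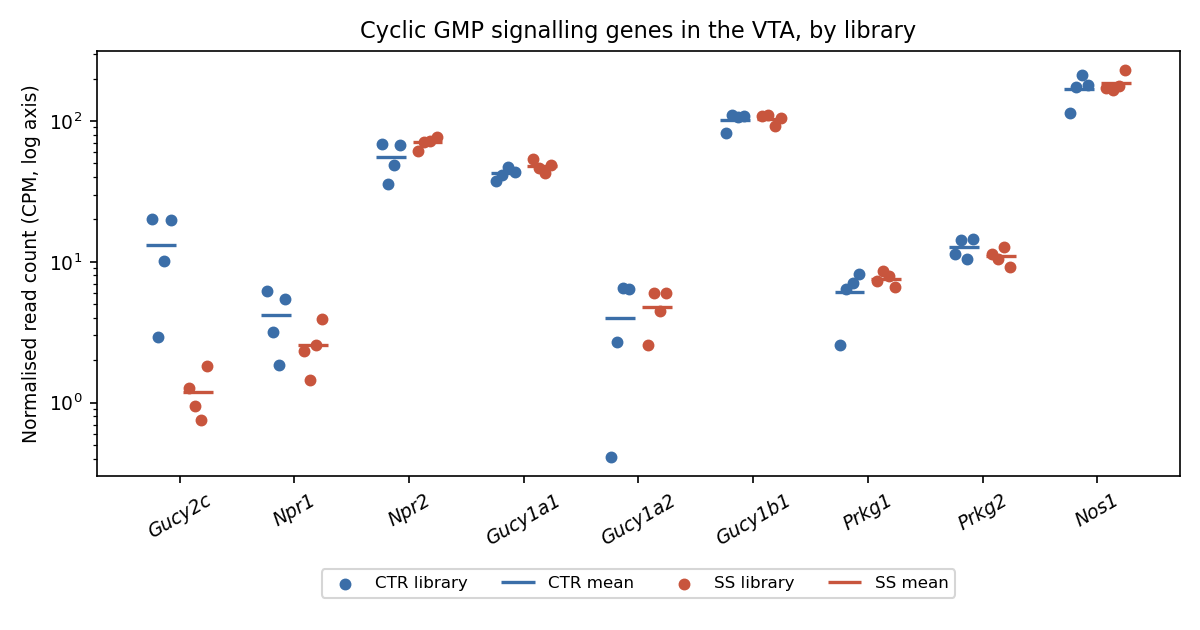
Normalised read count (CPM, log axis) of the 9 genes in each of the 4 CTR and 4 SS libraries, with points for libraries and bars for group means. The SS points of Gucy2c, between 0.753 and 1.81 CPM, all lie below the CTR points, while the groups overlap in the other 8 genes.

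Gucy2c (chromosome 6, 136697284 to 136781765, minus strand, GRCm38) was measured at 20.1, 2.95, 10.1 and 19.7 CPM in the CTR libraries. The SS libraries held 1.27, 0.954, 0.753 and 1.81 CPM. Every SS library was below every CTR library, but CTR-2 stood much nearer to the SS values than to the other CTR values. In 365 of all genes tested, that is 2.21%, all SS values likewise lay below all CTR values. The mean of CTR was 13.2 ± 8.25 CPM and that of SS 1.20 ± 0.46 CPM (SD, n = 4 each). The log2 fold change was -3.47 (SE 0.56, 95% interval -4.68 to -2.25), which leaves 9.05% of the CTR level, with an interval from 3.90% to 20.99%. An exact permutation test on log2 CPM over 70 assignments gave a two-sided p of 0.029, the smallest that 4 against 4 allow. The SS level rests on 20 to 53 counts per library.

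Gucy2c was lower in SS under every alternative, and its call depended on the setting. Over 20 alternatives its log2 fold change ranged from -3.80 to -2.72, with an adjusted p under 0.05 in 10 of them and a range from 7.3e-08 to 0.61. Without CTR-2 the log2 fold change was -3.80 and the adjusted p in edgeR's test 0.0027. With CTR-5 and SS-5 left out it was -3.46 (SE 0.67, adjusted p = 0.21 in edgeR's test). The smallest difference, -2.72, came with the replicate number as a term (adjusted p = 0.38 in edgeR's test).

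The other receptor cyclases did not share this pattern. Npr1, the receptor of A- and B-type natriuretic peptide, was at 6.20, 3.19, 1.86 and 5.43 CPM in the CTR libraries and at 2.34, 1.45, 2.56 and 3.93 CPM in the SS libraries. The groups overlapped, with the highest values in CTR-1 and CTR-5. Npr1 had a log2 fold change of -0.70 (SE 0.50, 95% interval -1.78 to 0.38, adjusted p = 0.81 from edgeR's test). Npr2, the receptor of C-type natriuretic peptide, is the most abundant receptor cyclase of the 3. It was at 68.8, 35.9, 48.6 and 67.3 CPM in the CTR libraries and at 61.4, 71.0, 72.0 and 77.1 CPM in the SS libraries. CTR-2 and CTR-3 were low, and the other CTR libraries lay within the SS range. The log2 fold change of Npr2 was 0.35 (SE 0.19, 95% interval -0.06 to 0.76, adjusted p = 0.76). Per kb of exon, Npr2 was 2.90 to 10.3 times as abundant as Gucy2c in CTR libraries and 36.2 to 81.1 times in SS libraries.

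None of the 3 subunit genes of the nitric oxide-sensitive cyclase was called, and the intervals were narrow for Gucy1b1 and Gucy1a1 and wide for Gucy1a2. Gucy1b1, the beta subunit, averaged 101.9 ± 13.7 CPM for CTR and 103.7 ± 8.31 CPM for SS (SD, n = 4 each). Its library values ran from 81.5 to 111 CPM in CTR and from 91.6 to 110 CPM in SS. Its log2 fold change was 0.03 (SE 0.12), and the 95% interval from -0.23 to 0.29 allows SS levels between 85.0% and 122% of CTR. Gucy1a1, the main alpha subunit here, was at 37.8, 41.5, 47.3 and 43.7 CPM in the CTR libraries and 53.7, 46.4, 42.6 and 48.9 CPM in the SS libraries. The ranges overlapped, and the log2 fold change was 0.17 (SE 0.12, 95% interval -0.10 to 0.44, adjusted p = 0.81). These genes lie beside each other on the minus strand of chromosome 3, Gucy1b1 from 82032006 to 82074689 and Gucy1a1 from 82092427 to 82145789.

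Gucy1a2 encodes the other alpha subunit and was the rarer of the alpha genes in every library. It had 8 counts in CTR-1 and 67 to 250 in the other CTR libraries, compared with 108 to 289 in SS. That is 0.413 CPM in CTR-1 and 2.71 to 6.48 CPM elsewhere in CTR. The log2 fold change was 0.25 with a wide interval (SE 0.63, -1.14 to 1.63), and without CTR-1 it was -0.12. Per kb of exon the level of Gucy1b1 was 3.49 to 4.44 times that of the alpha genes together in CTR and 3.39 to 3.71 times in SS. Gucy1a1 exceeded Gucy1a2 by a median of 10.8 times in CTR and 8.42 times in SS, with the widest ratio, 87.2, in CTR-1.

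Prkg1 and Prkg2, the kinases that cGMP activates, differed less between groups than between libraries. Prkg1 (chromosome 19, 30564489 to 31765033) is the form known from smooth muscle and many neurons. It was at 2.58, 6.46, 7.08 and 8.25 CPM in CTR and at 7.29, 8.57, 7.87 and 6.62 CPM in SS. Only CTR-1 and CTR-2 lay outside the SS range. For Prkg1 the log2 fold change came to 0.31 (SE 0.34, 95% interval -0.43 to 1.05, adjusted p = 0.88 from edgeR's test). Prkg2, the membrane-bound form, was at 11.4, 14.3, 10.5 and 14.4 CPM in CTR and at 11.4, 10.5, 12.8 and 9.24 CPM in SS. The log2 fold change of Prkg2 came to -0.20 (SE 0.20, 95% interval -0.64 to 0.23, adjusted p = 0.87). Per kb of exon, Prkg2 was 2.99 to 8.90 times as abundant as Prkg1 in CTR and 2.48 to 3.29 times in SS.

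Nos1 was the most abundant of the 9 by counts. The CTR libraries held 114, 174, 211 and 180 CPM, and the SS libraries held 171, 166, 176 and 229.6 CPM. CTR-1 was the lowest and SS-5 the highest, and the other 6 libraries lay between 166 and 211 CPM. The log2 fold change was 0.13 (SE 0.17, 95% interval -0.25 to 0.50), so that SS levels between 84.4% and 142% of CTR are allowed. Without CTR-1 the log2 fold change was -0.02.

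**Figure D2:**
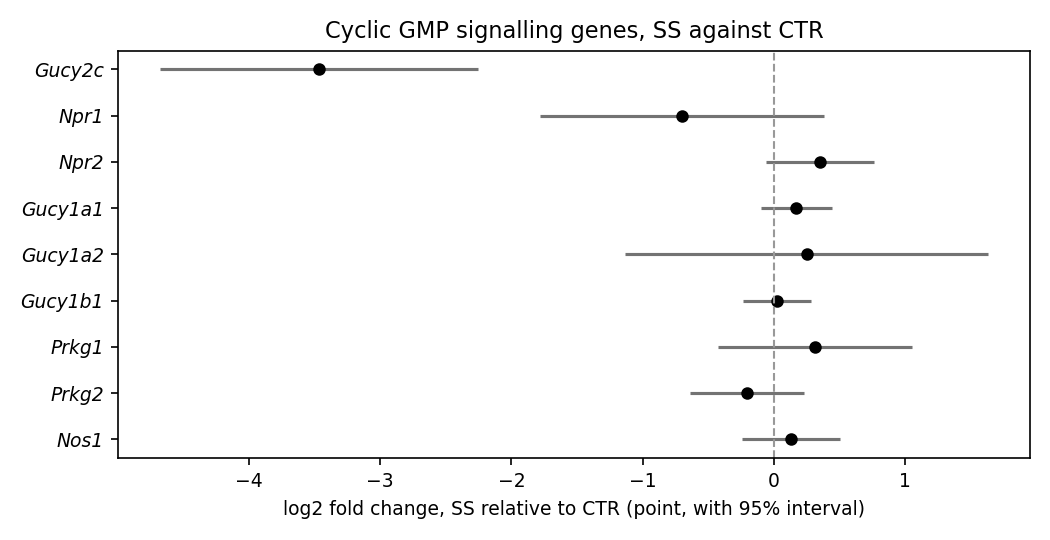
Log2 fold change of each gene in SS relative to CTR, as points with 95% intervals from edgeR's quasi-likelihood fit (n = 4 each). The interval of Gucy2c, -4.68 to -2.25, lies wholly below 0, while those of the other 8 genes include 0.

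CTR-1 had the lowest level of any library for 5 of the 9 genes (Gucy1a1, Gucy1a2, Gucy1b1, Prkg1 and Nos1) and the highest for Gucy2c and Npr1. The part of its lower gene richness in these values was not tested. Without CTR-1, the signs of Gucy1a2, Gucy1b1 and Nos1 turned from higher to lower in SS.

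Levels can be compared between genes only per length, here as CPM per kb of annotated exon. In CTR the order was Gucy1b1 (25.9), Nos1 (15.2), Npr2 (11.8), Gucy1a1 (6.11), Gucy2c (3.34), Prkg2 (2.36), Npr1 (0.872), Gucy1a2 (0.6002) and Prkg1 (0.561). Gucy2c thus stood 5th of 9, although its CTR range, 0.745 to 5.08, included the whole range of Prkg2. In SS it was last, at 0.302 (range 0.190 to 0.457), next to Npr1 at 0.538, and the ranges of this pair overlapped. Gucy1b1, Nos1, Npr2 and Gucy1a1 were 1st to 4th in each group. The ranges of Nos1 and Npr2 overlapped in both groups, as did those of Gucy1a2 and Prkg1.

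The genes whose values over the 8 libraries lay nearest to those of Gucy2c were Slc18a2, Th, Chrna6, Slc10a4 and Ddc. Nearness was the root mean square distance between log2 CPM values, each gene centred on its own mean, so it reflects the group difference as well as the spread within groups. The distances were 0.63 for Slc18a2, the vesicular monoamine transporter, 0.63 for Th, the rate-limiting enzyme of dopamine synthesis, 0.70 for Chrna6, a nicotinic receptor subunit, 0.72 for Slc10a4, a vesicular transporter-like protein, and 0.76 for Ddc, which forms dopamine from L-DOPA. The nearest other member, Npr1, was at 1.45. For Slc6a3, the dopamine transporter gene, the distance was 1.80, since its difference between groups was larger. Within SS, SS-5 was the highest library for Gucy2c, Slc18a2, Th and Chrna6, whereas SS-2 was the highest for Slc10a4 and Ddc, and SS-5 was the lowest for Ddc. In CTR-2, Gucy2c was 0.24 below its own mean on the log2 scale, while these 5 genes were 0.83 to 1.35 above theirs.

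**Figure D3:**
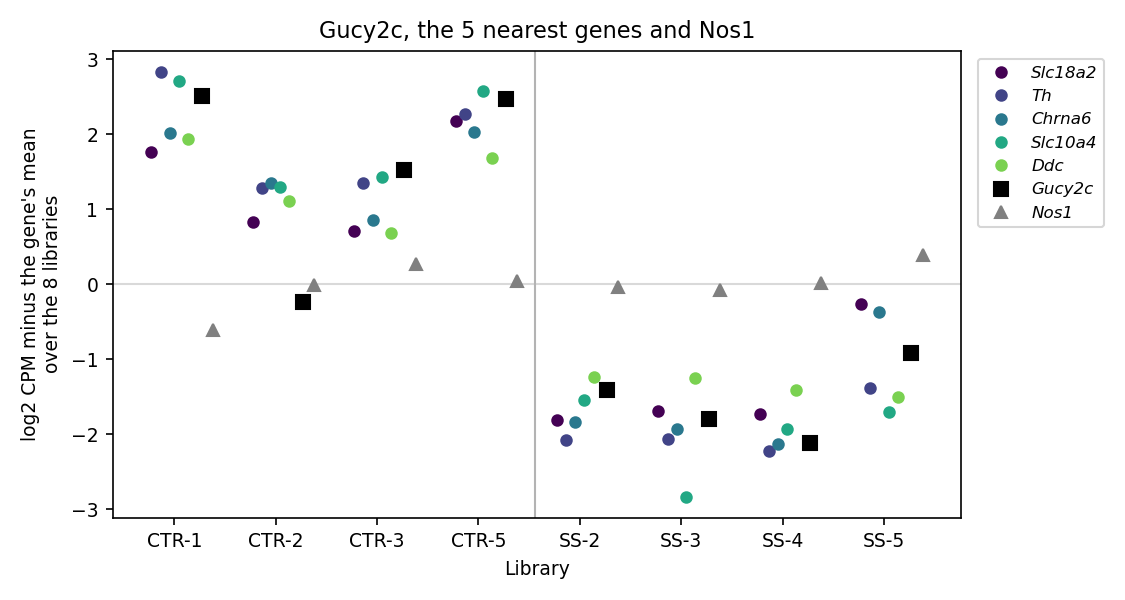
Log2 CPM minus the gene's own mean over the 8 libraries, for Gucy2c, the 5 genes nearest to it and Nos1, with 1 symbol per gene in each library. In CTR-2 Gucy2c is at -0.24, below the 5 genes chosen as nearest to it, which are at 0.83 to 1.35, and Nos1 stays between -0.61 and 0.40.

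Of 12 markers of dopamine neurons, 6 (Slc6a3, Th, Ddc, Slc18a2, En1 and Aldh1a1) were called by edgeR's test, all lower in SS, compared with 0.0847% of all genes. The other 6 were not called. Log2 fold changes were -5.545 for Pitx3 (adjusted p = 0.064 in edgeR's test), -1.14 for Foxa2 and -1.11 for Drd2. Those of Foxa1, Lmx1b and Nr4a2 were -0.58, -0.13 and 0.16. The median over the 12 markers was -1.99. Their summed level was 1009 to 2107 CPM in CTR libraries and 304 to 419 CPM in SS libraries. None of the 12 was at 0 over all libraries. The list was set with these results known and contains genes that the study named from these libraries, so it is not independent evidence. Its part in the Gucy2c difference was not tested, and the ratios that follow are descriptions.

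Whether Gucy2c was lower than dopamine neuron transcripts of the same library depended on which transcripts it was set against. Per 1000 summed counts of the 12 markers, Gucy2c had 9.54, 2.22, 10.01 and 10.2 counts in the CTR libraries and 3.69, 3.14, 2.38 and 4.32 counts in the SS libraries. CTR-2 lay below all SS libraries and the other CTR libraries above them, with a log2 difference of -1.04. Against Slc6a3 and Th alone, Gucy2c was higher in SS, at 17.6 ± 8.10 counts per 1000 in CTR and 50.7 ± 13.3 in SS (SD, n = 4 each). All SS libraries lay above all CTR libraries there, with a log2 difference of 1.67. Against the transcription factors Foxa1, Foxa2, Lmx1b and Nr4a2, which specify and maintain dopamine neurons, it was lower, at 96.5 ± 62.2 and 9.18 ± 2.09 counts per 1000. The log2 difference was -3.11 with no overlap between groups. These 4 factors were not called, with log2 fold changes from -1.14 for Foxa2 to 0.16 for Nr4a2. The punches contain every cell type, so counts of these factors may come from other cells as well, which was not tested. All 3 references were chosen with their own differences known, -6.22 for Slc6a3 and -3.99 for Th among them. The differences of a reference bear on the direction of its ratio, so the ratios are given as descriptions without a test.

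**Figure D4:**
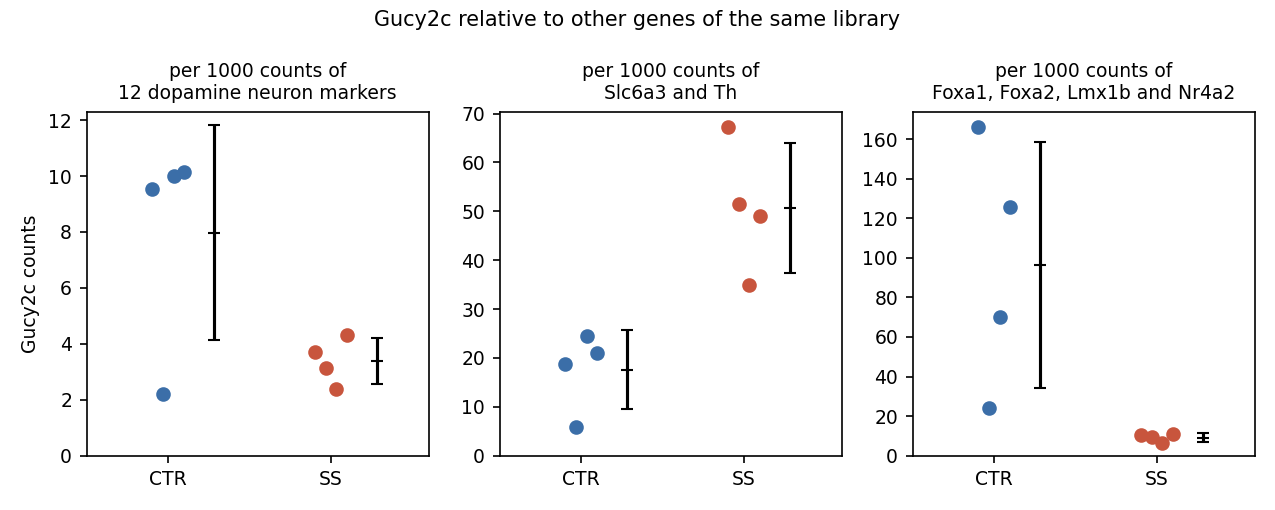
Gucy2c counts per 1000 counts of 12 dopamine neuron markers, of Slc6a3 and Th, and of 4 transcription factors in the same library. Points are libraries, and bars give mean ± SD (n = 4). SS lies above CTR for Slc6a3 and Th, below it for the transcription factors, and overlaps it for the 12 markers.

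Among the other cyclic GMP genes, a list of 46, none was called by edgeR's quasi-likelihood test or by DESeq2, nor in any of the other 19 alternatives run. Of the 32 that passed the filter, 20 were higher and 12 lower in SS, and the median log2 fold change was 0.11. At an unadjusted p under 0.05 there were 4 of the 32, compared with 6.55% of all genes. In 1 of the 32, Pde11a, every SS value exceeded every CTR value, compared with 2.47% of all genes, and in 1, Ddah1, every SS value was lower, compared with 2.21%.

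Of the peptide ligands, only Nppc passed the filter on low counts. Guca2a and Guca2b, which encode guanylin and uroguanylin, the ligands of Gucy2c, had 0 counts in all 8 libraries, as did Nppb. A count of 0 allows up to 0.0622 to 0.155 CPM, depending on the library (3 counts, counting error only). Nppa had 0 to 44 counts per library and was not tested. Nppc, the ligand of Npr2, had 62 to 165 counts in CTR and 78 to 120 in SS. The fitted log2 fold change of Nppc came to -0.61 (SE 0.49, adjusted p = 0.83).

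Of the other cyclases and receptors, 4 of 6 passed the filter, with 3 higher and 1 lower in SS. Npr3, the clearance receptor of natriuretic peptides, averaged 5.59 ± 3.54 CPM for CTR and 4.81 ± 1.57 CPM for SS (SD, n = 4 each). Gucy2e, a cyclase of photoreceptors, was at 2.57 ± 1.36 and 3.32 ± 0.71 CPM. Neither was called, and Gucy1b2 and Gucy2d had no more than 26 counts in any library.

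Nitric oxide supply and its regulators were measured by 5 genes, none of them called. Ddah1, which removes an inhibitor of nitric oxide synthases, had 148, 149.5, 143 and 143.6 CPM among CTR and 128.5, 138.7, 123 and 133 CPM among SS libraries. All SS libraries were below all CTR libraries by a small amount. Its log2 fold change was -0.16 (SE 0.08), with an adjusted p of 0.75 in edgeR's test. Nos1ap, an adaptor of Nos1, ran from 13.6 to 39.7 CPM among CTR and from 16.8 to 22.5 CPM among SS libraries, and its log2 fold change of -0.56 (SE 0.28) had an adjusted p of 0.75.

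Phosphodiesterase genes linked to cGMP, some of them for regulatory subunits, numbered 15. Of these, 10 passed the filter, and 6 of the 10 were higher in SS. Pde1b, a calcium-activated form, was the most abundant, at 131 ± 14.6 CPM for CTR and 135 ± 8.79 CPM for SS. Its log2 fold change was 0.04 (SE 0.10). Pde10a was at 52.6 ± 15.02 and 49.6 ± 4.04 CPM, and its value in CTR-5, 75.1 CPM, was far above the 44.8 to 45.5 CPM of the other CTR libraries. Pde11a was named after its values were seen. Its level was 2.84 to 10.3 CPM among CTR and 11.2 to 17.95 CPM among SS libraries, and its log2 fold change of 0.79 (SE 0.34) had an adjusted p of 0.75.

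Channels, exporters and kinase substrates were likewise not called. Cngb1, a beta subunit of cyclic nucleotide-gated channels, averaged 4.08 ± 1.10 CPM for CTR and 7.94 ± 2.28 CPM for SS. Its log2 fold change of 0.96 (SE 0.33) had an adjusted p of 0.74, and the alpha subunit gene Cnga4 had 6 to 100 counts per library. The exporter gene Abcc5 was at 150 ± 42.8 and 179 ± 12.5 CPM, and Abcc4 at 11.9 ± 5.90 and 13.4 ± 2.90 CPM. Gtf2i, a transcription factor that binds Prkg1, was the most abundant of the list, at 246 ± 21.6 and 262 ± 8.31 CPM. Rgs2, a regulator of G protein signalling and kinase substrate, was at 56.6 ± 3.39 and 49.3 ± 5.84 CPM. Ppp1r1b, which encodes the phosphatase regulator DARPP-32, and Vasp, an actin regulator, were named after their values were seen. Ppp1r1b averaged 27.6 ± 4.67 CPM for CTR and 18.3 ± 4.35 CPM for SS (log2 fold change -0.59, SE 0.20, adjusted p = 0.74). Vasp was at 11.9 ± 3.69 and 17.2 ± 1.37 CPM (0.52, SE 0.23, adjusted p = 0.75).

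**Figure D5:**
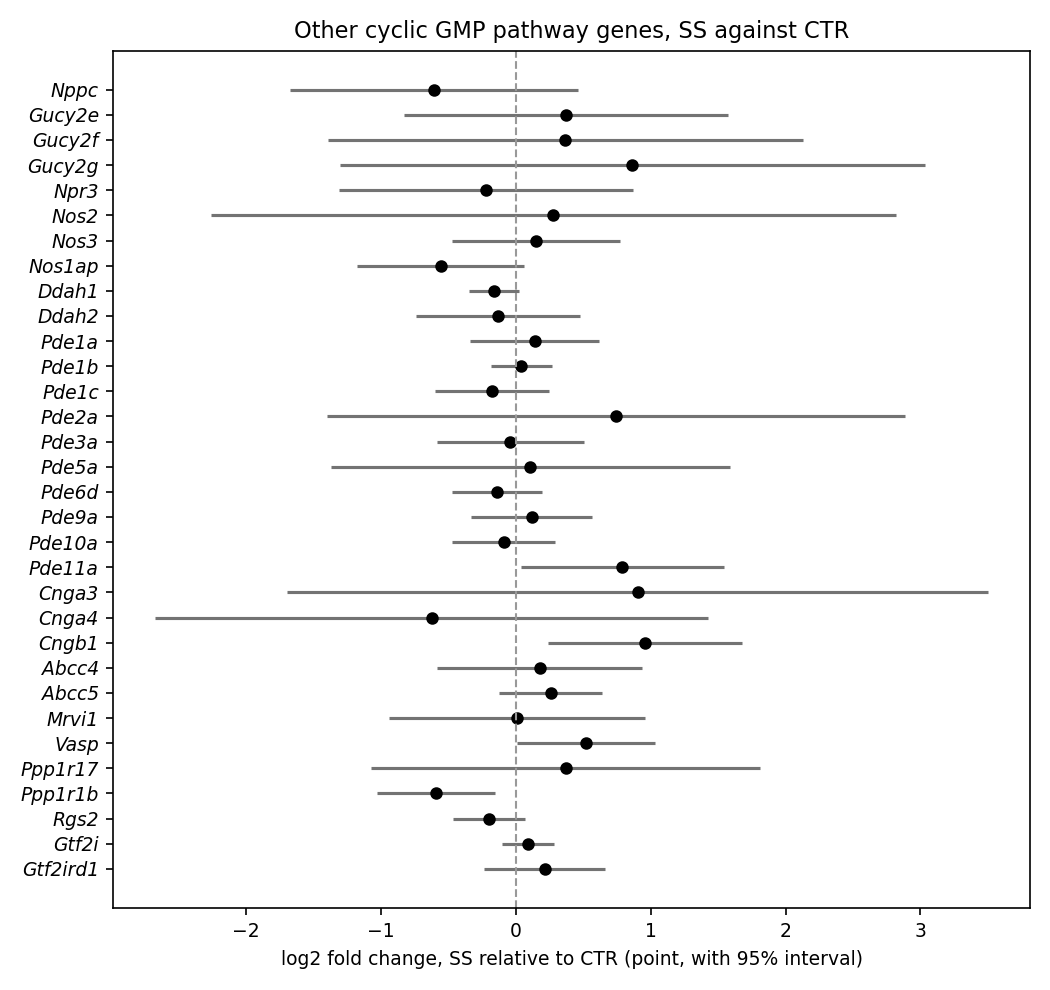
Log2 fold change in SS relative to CTR of the 32 other cyclic GMP genes that passed the filter, as points with 95% intervals (n = 4 each), in the order of their roles from ligand to kinase partner. The points lie between -0.62 and 0.96, and the intervals of Pde11a, Cngb1, Vasp and Ppp1r1b exclude 0 before any adjustment.

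Other cell types that use these genes were read from marker lists, none of which held a called gene. The summed level of 8 mural and smooth muscle markers was 191 to 270 CPM in CTR and 255 to 287 CPM in SS, with all 8 higher in SS but not called. Endothelial markers, 6 in number, summed to 204 to 248 and 206 to 257 CPM. The 3 GABA neuron markers summed to 413 to 459 and 356 to 550 CPM, and 6 astrocyte markers to 816 to 999 and 837 to 944 CPM. The 2 glutamate neuron markers summed to 348 to 772 and 448 to 503 CPM. They differed in direction, with log2 fold changes of 0.20 for Slc17a6 and -2.16 for Slc17a7. Slc17a7 was uneven within CTR, with 269 counts in CTR-1 and 15830 in CTR-5. The 5 oligodendrocyte markers summed to 20970 to 29940 and 23790 to 26450 CPM, and 6 microglial markers to 165 to 236 and 160 to 178 CPM. Markers of hypothalamic and mammillary tissue, which borders the VTA, summed to 71.5 to 142 CPM in CTR and 134 to 177 CPM in SS, with 7 of 7 tested genes higher in SS and Avp at 0. Among them Pmch, the melanin-concentrating hormone gene, was at 6.36 ± 7.40 CPM for CTR and 37.4 ± 8.68 CPM for SS (named after its values were seen, not called). The 6 thalamic markers summed to 52.4 to 90.1 and 51.3 to 64.3 CPM, and 6 cortical and hippocampal markers to 17.4 to 136 and 16.9 to 44.9 CPM. By direction, all 3 GABA neuron markers were higher in SS, and all 5 oligodendrocyte and all 6 microglial markers were lower. The endothelial, glutamate neuron, astrocyte, thalamic, and cortical and hippocampal lists went both ways. The part of these cell types and tissues in the values of the 9 genes was not tested.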

How the data were processed

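Counts from RNA-seq of the VTA were analysed for 8 mice, 4 per group, with 1 library each and groups taken from the titles. The deposited table holds raw counts per gene, not normalized, which the authors made with Cutadapt (trimming), STAR (alignment to mm10) and htseq-count (Ensembl release 102). The strand setting is not given in the sources used here. Genes annotated across the exons of the 9 genes on the other strand had at most 69 counts over the 8 libraries. Counts were filtered with filterByExpr (minimum count 10, minimum total 15), normalized with TMM and fitted with glmQLFit and glmQLFTest of edgeR 4.0.16 (R 4.3.3, legacy estimate), with no term besides the group. P-values were adjusted by Benjamini-Hochberg at a threshold of 0.05. SE is the log2 fold change divided by the root of the test's F, and intervals are 95%. CPM are per effective library, and log2 CPM used a prior count of 2. Alternatives were DESeq2 1.42.0, limma 3.58.1 voom, other estimates, scalings and filters, libraries left out, Xist-positive libraries as a term, and the replicate number as a term. Nothing ties the pups to separate litters, so p-values measure the spread between these pups. Exon lengths and positions came from GENCODE M21 (GRCm38, the build of mm10). The genes named were the 9, the 2 most abundant per role of the pathway list, marker genes and the 5 nearest to Gucy2c, and others are marked. Members, lists and tests were chosen with earlier results of these data known. The edgeR, DESeq2 and voom tests were tested on simulated data, and the permutation test on small examples with a known answer.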

Additional observations from a re-analysis of the deposited data

Results flagged for a closer look

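Dixon's ratio, the distance of the most extreme library from the next one relative to the range of its group, passed the 95% limit in 5 of 46 groups of 4 libraries, where chance flags about 1 in 20, or 2.3. CTR-1 stood below the other CTR libraries for Gucy1b1 (ratio 0.844) and for Gtf2i (0.872). SS-5 stood above the other SS libraries for Nos1 (0.843), and CTR-5 above the other CTR libraries for Pde10a (0.9747). For Gucy2c per 1000 counts of dopamine neuron markers, CTR-2 stood below the rest (0.923), at 2.22 compared with 9.54 to 10.2. Without CTR-2 the log2 difference of this ratio was -1.58.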

How the results depend on the processing

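Gucy2c was lower in SS in all 20 alternatives, and the count of members called was 0 or, for Gucy2c alone, 1. Gucy2c was called, at a log2 fold change of -3.47 with DESeq2, -3.53 with edgeR's bias-adjusted estimate, -3.47 with robust estimation, -3.47 with DESeq2's size factors, -3.46 with upper-quartile normalization, -3.46 without a filter, -3.48 at a mean count of at least 50 and -3.46 with Xist-positive libraries as a term. With CTR-1 and CTR-2 both left out, an alternative chosen after seeing the data, it was called at -3.65 (adjusted p = 0.0031 from edgeR's test). Limma voom gave an adjusted p of 0.61. Leaving out 1 library gave -3.80 to -3.19 and 0 to 1 members called, the 1 being without CTR-2. Of all genes, 81 were called with DESeq2, 27 with the bias-adjusted estimate, 22 without a filter, 22 at a mean count of at least 50 and 9 without CTR-5 and SS-5. Leaving out 1 library gave 6 to 19, among them 8 (SS-2 left out), 7 (SS-3 left out), 6 (SS-4 left out) and 9 (SS-5 left out). With the replicate block 9 were called, no member among them, and Gucy2c was at -2.72 (adjusted p = 0.38). The deviations of each library's log2 CPM from its group mean were correlated over genes, and same-numbered libraries gave -0.006, -0.008 and 0.06. The other pairs of a CTR and an SS library ran from -0.0935 to 0.0448. Both libraries numbered 5 held Xist. The labels give no pairing by number, and these correlations cannot decide whether there is one. None of the other 46 pathway genes was called in any alternative. Small log2 fold changes turned in sign. With the replicate block they were -0.088 for Gucy1a2, -0.012 for Gucy1b1 and -0.0073 for Nos1. Without CTR-1 and CTR-2 they were -0.43 for Gucy1a2, -0.050 for Gucy1b1, -0.074 for Nos1 and -0.014 for Prkg1. Leaving out 1 library gave -0.12 to 0.57 for Gucy1a2, -0.066 to 0.083 for Gucy1b1 and -0.020 to 0.24 for Nos1, the lowest being without CTR-1, and -0.0019 for Gucy1b1 without SS-3. The log2 difference of Gucy2c relative to dopamine neuron markers was -1.58 to -0.85 without 1 library, -0.98 without CTR-5 and SS-5, 1.67 against Slc6a3 and Th, and -3.11 against the transcription factors. The causes were not tested. No scaling moved the median of all genes by 0.1 on the log2 scale. Each scaling by design brings most genes near no difference, so this is no test of the results. The SS level of Gucy2c rests on few counts, 20 to 53 per library.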
